A study of Mus musculus with 2 samples.

Results

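Nr4a1, Nr4a2, Nr4a3, Egr1, Egr2 and Egr3 are 6 early response genes, chosen by symbol, out of 32285 genes counted in stimulated mouse CD8 T cells. All 6 were found in the count matrix of each of 2 single-cell libraries. The series compared CD8 T cells of C57/B6N wild-type mice with cells of mice with floxed Nfatc1 alleles and a Cre recombinase driven by the Cd4 promoter (Nfatc1f/f×Cd4-Cre), which acts in T cells from the thymus onward. Both groups came from mesenteric lymph nodes, were isolated with CD8 affinity beads, driven toward interleukin-17 production (Tc17) with a commercial Th17 cytokine and antibody kit, and then stimulated for 3 h (PMA at 100 ng/ml, ionomycin at 10 μg/ml) before tagging. There was 1 library per group, and the labels give neither the age of the mice nor how many were pooled. No difference between the groups could be checked against replicates, and no p-value is given. Every interval is a 95% interval of counting error only, and does not cover mice, cultures or, for summed counts and their ratios, the spread between cells.

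NR4A proteins are orphan nuclear receptors that bind DNA without a known natural ligand, and EGR proteins are zinc-finger transcription factors. Their genes are switched on within minutes to hours of T-cell receptor signalling, which PMA (through protein kinase C and the Ras pathway) and ionomycin (through calcium, calcineurin and NFAT) imitate. In T cells, EGR2 and EGR3 are known as brakes linked to anergy, and NR4A factors as feedback regulators linked to exhaustion of CD8 cells and to tolerance.

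After removal of barcodes with fewer than 500 genes or more than 10% mitochondrial counts, 1018 and 709 cells remained, with medians of 20906 and 21436 unique molecular identifiers (UMIs, each standing for 1 captured transcript). The libraries shared 0 cell barcodes, and in each of them 1 multiplexing tag led in every kept cell. In 99.6% and 99.9% of cells, 2 or more of 7 CD8 T-cell markers were found. Cd4 was seen in 3 and 4 cells and at least 2 B-cell markers in 1.96% and 1.69%; the defining NK-cell genes Ncr1 and Klrb1c were at 0. At least 2 of 3 stromal or epithelial markers were found in 7.76% and 4.37% of cells, through Pecam1 and Epcam, whereas Col1a1 was seen in 0.0982% and 0.141%. Nfatc1 transcripts went against the labels, with 39.8 counts per 1000000 UMIs (CPM) in the library labelled wild type and 136 CPM in the library labelled deficient. The 3′ tags cannot show whether a transcript carries the deletion, so this checks nothing about it. Whether the labels were exchanged was not tested, and an exchange would turn every direction given here. The libraries are therefore called wild-type-labelled and deficient-labelled, and directions are given by label.

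The genes lie on 6 chromosomes of the mm10 build (GENCODE M21), each is protein coding, and none overlaps another annotated gene. Nr4a1 (ENSMUSG00000023034) spans chr15:101254269-101274795 on the plus strand. Nr4a2 (ENSMUSG00000026826) spans chr2:57106830-57124003 on the minus strand, and Nr4a3 (ENSMUSG00000028341) spans chr4:48045153-48086447 on the plus strand. Egr2 (ENSMUSG00000037868) spans chr10:67535475-67542188 and Egr3 (ENSMUSG00000033730) chr14:70077203-70082614, both on the plus strand; the position of Egr1 is given with its level.

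The promoters of 4 of the 6 genes were in the RefSeq table used (GRCm38.p6); Egr1 and Egr3 were not matched. The stretches are shown because members that differ between the libraries and a member that differs little can be read side by side. Capitals mark TGACG or its complement CGTCA, the half-site of the cyclic AMP response element (CRE) bound by CREB and ATF factors, and each stretch lies before 1 RefSeq start, outside any GENCODE exon of the gene, and is written 5′ to 3′ on the gene's strand. The Nr4a1 and Nr4a2 stretches are the 250 bases before the RefSeq start at chr15:101266596-101266845 (plus strand) and chr2:57124004-57124253 (minus strand). Nr4a1 and Egr2 have further annotated starts upstream, so their stretches lie within the span of the gene. The Nr4a3 stretch of 98 bases, chr4:48045055-48045152 (plus strand), ends at the first annotated exon, and for Egr2 only 30 bases around each match are shown, chr10:67537748-67537777 and chr10:67537804-67537833 (plus strand).
Nr4a1: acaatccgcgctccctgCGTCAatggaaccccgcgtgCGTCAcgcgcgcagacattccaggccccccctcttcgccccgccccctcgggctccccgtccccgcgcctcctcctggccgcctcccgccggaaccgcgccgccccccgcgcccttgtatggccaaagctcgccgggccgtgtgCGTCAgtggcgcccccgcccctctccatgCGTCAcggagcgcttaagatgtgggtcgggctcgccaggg
Nr4a2: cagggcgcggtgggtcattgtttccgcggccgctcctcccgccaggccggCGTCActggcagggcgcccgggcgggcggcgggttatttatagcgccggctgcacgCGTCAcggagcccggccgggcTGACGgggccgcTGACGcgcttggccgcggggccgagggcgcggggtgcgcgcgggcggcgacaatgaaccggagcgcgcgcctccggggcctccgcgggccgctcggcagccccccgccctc
Nr4a3: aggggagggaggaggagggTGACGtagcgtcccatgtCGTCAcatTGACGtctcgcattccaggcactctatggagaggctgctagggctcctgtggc
Egr2, upstream match: attggccatgTGACGgcaaaagctgccagg
Egr2, downstream match: tgggcagcgaCGTCAcgggtattgaagacc

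Counted on both strands, the windows of 300 bases around the RefSeq start of Nr4a1, Nr4a2 and Nr4a3 each held 4 half-sites. At least 4 were present in 76 of 32817 mouse promoter windows of that length (0.232%). For Egr2, which has several annotated starts, the windows with matches held 2, as did at least that many in 5.01% of all windows. The full element TGACGTCA was in none of these windows, against 1.79% of all. The NFAT core GGAAA was matched once in the Nr4a2 window and not in those of Nr4a1 and Nr4a3, and 4 of the 5 Egr2 windows held 1 to 3 matches, while 61.3% of all windows held it. A CArG box, the core of the serum response element, was found in 4 of the 5 Egr2 windows, including a window without half-sites, and in 1.63% of all. The Egr2 windows with half-sites overlap one another. The motifs were chosen with the expression values known, and a match is a description of letters. Nr4a1, whose level differed least between the libraries, thus held as many half-sites as Nr4a2 and Nr4a3.

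Levels are UMIs summed over the kept cells, as CPM of the library total; 1 UMI was worth 0.0409 CPM among wild-type-labelled and 0.0559 CPM among deficient-labelled cells. A gene was called higher or lower where it reached 20 CPM in at least 1 library and differed at least 2-fold on log2(CPM + 1). Of the 6 genes, 3 were higher in the deficient-labelled library by this rule (Nr4a2, Nr4a3 and Egr2), 0 were lower, 2 stayed within 2-fold (Nr4a1 and Egr1) and 1 (Egr3) did not reach 20 CPM. By the same rule 2.27% of the 5584 genes that reached 20 CPM were higher and 2.08% lower, and the median log2 ratio over all of them was 0.03. The 3 calls held under each of 12 other choices of scaling, total, pseudocount, floor, barcode filter and cells.

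Among the receptors, Nr4a3 (also called NOR1) differed most. It stood at 66.6 CPM (63.4 to 69.9) among wild-type-labelled cells and 231 CPM (224 to 239) among deficient-labelled cells, a 3.48-fold difference (3.28 to 3.68). Nr4a2 (NURR1) stood at 30.7 CPM (28.6 to 33.0) and 73.9 CPM (69.99 to 78.0), 2.41-fold apart (2.20 to 2.64). The intervals of the 2 libraries were far apart for both genes. Nr4a1 (NUR77), the family member most used as a reporter of recent antigen receptor signalling, stood at 55.4 CPM (52.5 to 58.4) and 67.5 CPM (63.8 to 71.5). Its 1.22-fold difference (1.13 to 1.32) was above counting error and well under the 2-fold rule.

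Among the EGR genes, only Egr1 was lower in the deficient-labelled library, and by less than 2-fold. Egr1 (ENSMUSG00000038418, chr18:34859823-34864984, plus strand), a rapidly induced target of the ERK pathway, stood at 116 CPM (112 to 120) in the wild-type-labelled and 85.3 CPM (81.1 to 89.7) in the deficient-labelled library, 1.36-fold higher in the former (1.27 to 1.44). Egr2, known to restrain T-cell activation, stood at 26.6 CPM (24.6 to 28.7) and 71.9 CPM (68.0 to 75.9) (2.70-fold, 2.46 to 2.97). Egr3, its close relative, was scarce, with 98 and 159 UMIs in all, or 4.01 CPM (3.25 to 4.88) and 8.88 CPM (7.56 to 10.4). Its ratio of CPM was 2.22 (1.71 to 2.88), but the log2 ratio with the pseudocount, 0.98, fell short of 2-fold and the gene was below the floor in both libraries.

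**Figure D1:**
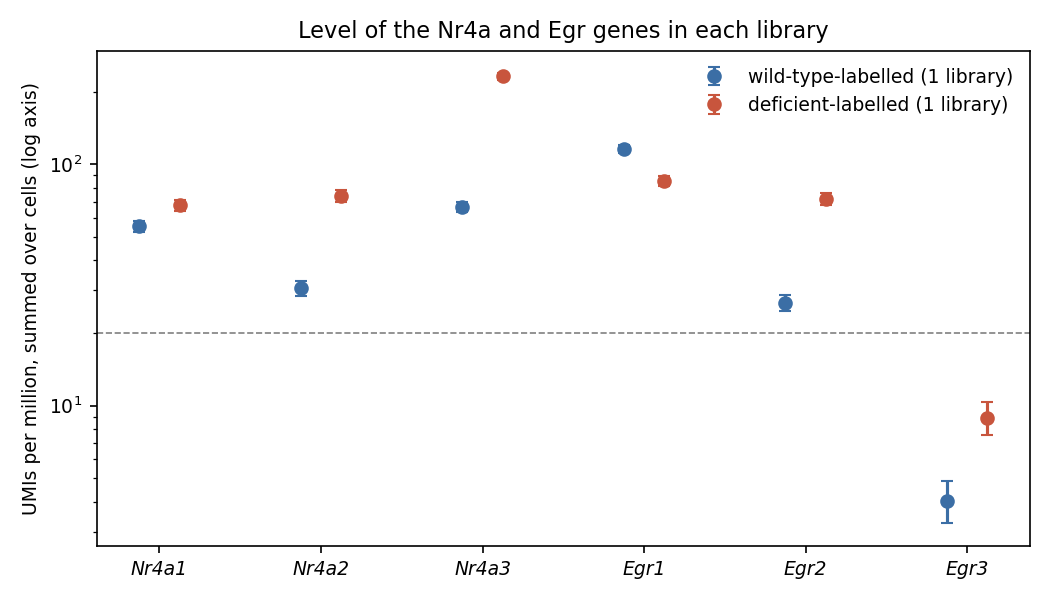
Level of each gene in the wild-type-labelled (blue) and deficient-labelled (red) library, in CPM on a log axis, 1 library each, with 95% Poisson intervals that are smaller than most symbols; the dashed line is the floor of 20. Nr4a2, Nr4a3 and Egr2 lie apart with red above blue, Egr1 has blue above red, and Egr3 lies under the floor.

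The order of the 6 genes differed between the libraries. UMIs tag the 3′ end, and levels of different genes are set side by side here as CPM, without correction for capture or gene length. The sources used do not say if intronic reads were counted, so the order is one of counts and may not be that of transcripts. In the wild-type-labelled library Egr1 was highest, followed by Nr4a3, Nr4a1, Nr4a2, Egr2 and Egr3; only the neighbours Nr4a2 and Egr2 had overlapping intervals. In the deficient-labelled library Nr4a3 was highest, followed by Egr1, Nr4a2, Egr2, Nr4a1 and Egr3. There the intervals of Nr4a2, Egr2 and Nr4a1 all overlapped one another.

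To compare shares of cells at equal depth, each cell was thinned at random to 5000 UMIs, which left 1004 and 698 cells and removed 14 and 11 shallower ones. Nr4a3 was detected (at least 1 UMI) in 23.9% of thinned cells (21.3 to 26.7) of the wild-type-labelled and 55.4% (51.7 to 59.2) of the deficient-labelled library. Egr2 was detected in 11.95% (10.01 to 14.1) and 28.2% (24.9 to 31.7), and Nr4a2 in 13.6% (11.6 to 15.9) and 24.4% (21.2 to 27.7). For these 3 genes the intervals did not overlap, and the share was higher in the deficient-labelled library. Nr4a1 was detected in 21.5% (19.0 to 24.2) and 22.8% (19.7 to 26.1), a difference of 1.27 percentage points (-2.80 to 5.40). Egr1 was detected in 36.5% (33.5 to 39.5) and 31.2% (27.8 to 34.8), which overlap, and Egr3 in 2.49% (1.62 to 3.65) and 3.44% (2.22 to 5.07).

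Without thinning the shares were 46.6% and 48.1% for Nr4a1, 39.3% and 58.4% for Nr4a2, and 52.4% and 84.3% for Nr4a3. They were 67.1% and 61.8% for Egr1, 34.3% and 68.5% for Egr2, and 5.599% and 14.1% for Egr3. The order between the libraries was thus the same for every gene with and without thinning, and the Egr3 intervals no longer overlapped at full depth (4.27 to 7.19 against 11.6 to 16.9). No cell type in these libraries can be taken to lack these genes, so the share that free RNA alone would give could not be measured. The lowest share in a cytokine class of at least 100 cells was, Egr3 aside, 3.43% for Egr2 in wild-type-labelled cells with Il17a alone.

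**Figure D2:**
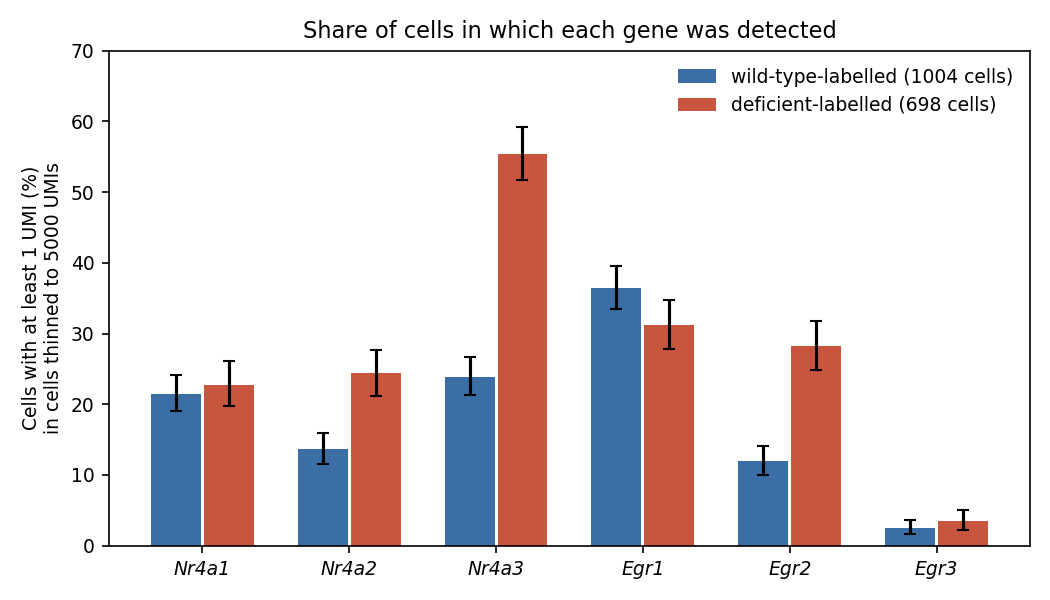
Share of cells with at least 1 UMI of each gene after thinning to 5000 UMIs, in percent, with 95% binomial intervals; blue is the wild-type-labelled library (1004 cells) and red the deficient-labelled library (698 cells). The bars for Nr4a2, Nr4a3 and Egr2 are taller in red with intervals apart, and those for Nr4a1 lie close together.

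A few cells held a large part of each transcript. The 10 cells highest in Egr1 held 15.2% and 18.1% of all its UMIs, with up to 195 and 86 UMIs in a cell, while the median over all cells was 1 UMI in each library. For Nr4a1 the top 10 cells held 14.8% and 17.9%, and for Nr4a3 12.5% and 9.29%. The median number of Nr4a3 UMIs per cell was 1 in wild-type-labelled and 4 in deficient-labelled cells. In Egr3 the top 10 cells held 43.9% and 28.3%, so its level rests on few cells. Across cells, thinned counts of the 6 genes ran weakly against sequencing depth, with Spearman's rho from -0.19 (Egr1, wild-type-labelled) to -0.01 (Nr4a3, deficient-labelled); the part of depth in the relations below was not tested beyond the thinning.

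Cells often carried several of these transcripts. At least 2 of the 6 were detected in 29.2% of thinned cells (26.4 to 32.1) of the wild-type-labelled and 48.4% (44.7 to 52.2) of the deficient-labelled library, and 0 of the 6 in 36.5% and 18.9%. Nr4a1 and Nr4a3 gave the highest rho of the 15 gene pairs in each library, 0.23 and 0.22. Among wild-type-labelled cells with Nr4a1, 38.9% (32.3 to 45.7) also had Nr4a3, against 19.8% (17.1 to 22.8) of cells without it. Deficient-labelled cells gave 71.7% (64.0 to 78.5) and 50.6% (46.3 to 55.0). Over all 15 pairs rho ran from 0.07 to 0.23 (median 0.14) and from -0.01 to 0.22 (median 0.13). These are correlations across cells of 1 library, weak in sparse counts, and the points share library and depth.

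The relation to cytokine output was read within each library, by comparing cells in which a gene was detected with cells in which it was not. The readout was the share of cells with at least 5 UMIs of a cytokine or effector gene in the thinned counts. Of 72 pairs of a gene and a cytokine in the wild-type-labelled library, 19 (26.4%) had a higher share in cells with the gene and intervals apart, and 3 (4.17%) a lower share. Over all genes detected in 2 to 60% of cells, 1.05% of such pairs were higher and 2.56% lower in that library. In the deficient-labelled library 6 of 72 pairs were higher (8.33%) and 3 lower (4.17%), against 1.19% and 4.68% over all genes. The pairs share cells and the cytokines run together, so they are not separate observations. The width of the intervals depends on how many cells carry a gene, and the genes set beside the 6 were not matched for that.

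**Figure D3:**
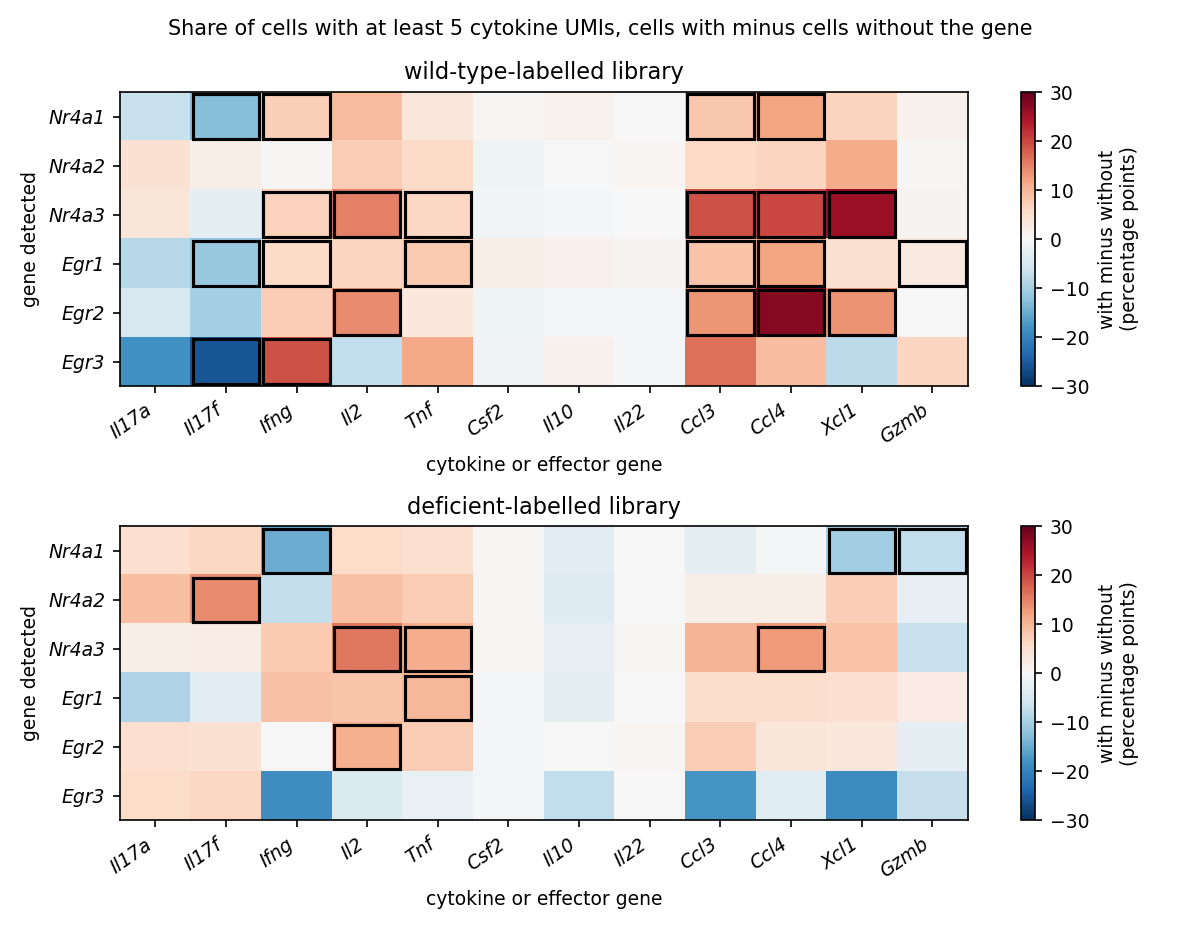
Difference in the share of cells with at least 5 UMIs of a cytokine gene (columns) between cells with and without each gene (rows), in percentage points, for the wild-type-labelled (top) and deficient-labelled (bottom) library; black frames mark pairs whose 95% intervals did not overlap. Frames in the Nr4a3 row lie on Ifng, Il2, Tnf, Ccl3, Ccl4 and Xcl1 at the top and on Il2, Tnf and Ccl4 at the bottom.

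Nr4a3 had the most pairs with a higher share in each library, 6 and 3. In the wild-type-labelled library 70.8% (64.6 to 76.5) of Nr4a3-positive cells had Il2, the gene of the T-cell growth factor interleukin-2, against 55.6% (52.0 to 59.2) of the others. Among deficient-labelled cells the shares were 82.2% (78.0 to 85.9) and 66.2% (60.7 to 71.5). Cells with Nr4a3 thus more often carried Il2 transcripts in both libraries, by 15.2 and 15.9 percentage points. Ccl4, a chemokine of activated CD8 cells, was present in 70.4% against 50.3% and in 88.4% against 75.6%. Tnf was present in 13.8% against 7.46% and in 23.8% against 12.9%. Under 6 alternatives of cytokine limit, depth and cells, the wild-type-labelled intervals were apart in 5 for Il2, 5 for Ccl4 and 1 for Tnf. The deficient-labelled intervals were apart in 5, 4 and 4.

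Further pairs of Nr4a3 had intervals apart in the wild-type-labelled library alone. Xcl1, a chemokine that draws cross-presenting dendritic cells, was present in 55.0% (48.5 to 61.4) of cells with and 29.5% (26.2 to 32.8) of cells without Nr4a3. Ccl3 was present in 30.4% against 11.4%, and Ifng, the gene of interferon-γ, in 14.6% against 7.59%. The intervals were apart in 6 of 6 alternatives for Xcl1 and for Ccl3, and in 3 of 6 for Ifng. Differences among deficient-labelled cells had the same sign, with 84.8% against 76.2% for Xcl1, 63.3% against 53.1% for Ccl3 and 46.5% against 38.6% for Ifng, but the intervals of the shares overlapped. Whether the libraries differ in these relations was not tested. Many cells lay near the limit for Tnf (21.8% and 29.5% had 3 to 7 UMIs), and the wild-type-labelled difference fell to -0.13 percentage points where a cell needed 20 UMIs of Tnf.

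Egr2 resembled Nr4a3 in direction for Il2, Tnf, Ccl3, Ccl4 and Xcl1. Among wild-type-labelled cells Il17a differed in direction, with 57.5% against 62.3% for Egr2 and 64.6% against 60.9% for Nr4a3. Both pairs of intervals overlapped. Il2 was present in 71.7% (62.7 to 79.5) of Egr2-positive and 57.6% (54.2 to 60.9) of other wild-type-labelled cells, and in 82.7% (76.7 to 87.7) and 72.1% (67.9 to 75.9) of deficient-labelled cells. The widest gap of any gene among wild-type-labelled cells was that of Egr2 with Ccl4, 79.2% (70.8 to 86.0) against 51.8% (48.5 to 55.1). Ccl3 and Xcl1 were also more frequent in Egr2-positive cells there, with 27.5% against 14.4% and 47.5% against 33.9%. The deficient-labelled intervals of these 3 chemokines overlapped, with 85.3% (79.5 to 89.9) against 81.6% (78.0 to 84.9) for Ccl4, 64.0% against 56.7% for Ccl3 and 83.2% against 80.0% for Xcl1. Leaving out cells with transcripts of Mki67, Top2a or Cdk1, changing the cytokine limit or changing the depth left the Egr2 and Il2 difference positive in each library, but with overlapping intervals in 5 of 6 alternatives in wild-type-labelled and 3 of 6 in deficient-labelled cells.

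Nr4a1 did not follow Nr4a3 for Ifng and Xcl1 among deficient-labelled cells. Among wild-type-labelled cells Ifng was present in 14.8% (10.4 to 20.3) of cells with Nr4a1 and 7.74% (5.97 to 9.83) of cells without. Deficient-labelled cells showed the opposite order, 31.4% (24.3 to 39.3) with and 46.4% (42.1 to 50.7) without. There Xcl1 (73.0% against 83.3%) and Gzmb, the gene of the cytotoxic protease granzyme B (5.03% against 12.4%), were also less frequent in cells with Nr4a1. Among wild-type-labelled cells Ccl3 (22.2% against 14.2%) and Ccl4 (64.4% against 52.5%) were more frequent in them, with intervals apart in 3 and 2 of 6 alternatives, where the difference came down to 1.74 and 2.77 percentage points. The deficient-labelled Xcl1 and Gzmb intervals were apart in 3 and 2 of 6. Gzmb ran the same way with Nr4a3 in that library, 7.75% against 14.5%, with overlapping intervals. Nr4a2 had 0 pairs with intervals apart in the wild-type-labelled library and 1 in the deficient-labelled library, Il17f, which was present in 50.6% (42.8 to 58.3) of cells with and 36.4% (32.3 to 40.6) of cells without it (apart in 2 of 6 alternatives).

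Il17f was less frequent in wild-type-labelled cells with Egr1 or Nr4a1. In the wild-type-labelled library Il17f was present in 65.8% (60.7 to 70.7) of cells with Egr1 and 77.1% (73.7 to 80.3) of cells without, and the intervals stayed apart in 6 of 6 alternatives. For Nr4a1 the shares were 63.0% (56.1 to 69.4) and 75.8% (72.6 to 78.7), apart in 4 of 6. Among deficient-labelled cells neither gene had Il17f intervals apart, with 37.6% against 40.8% for Egr1 and a difference of 6.25 percentage points for Nr4a1. Il17a, the defining cytokine of Tc17 cells, gave no pair with intervals apart for any of the 6 genes in either library. For Egr1 its shares were 56.3% against 64.9% in the wild-type-labelled library, a difference of -8.61 percentage points (-15.0 to -2.18). In the deficient-labelled library they were 17.4% against 26.7%, a difference of -9.24 (-15.6 to -2.33), so the interval of the difference lay below 0 in each library. That interval included 0 in 3 of 6 alternatives in the wild-type-labelled and 4 of 6 in the deficient-labelled library. For Nr4a2 the direction was the opposite. Il17a was present in 30.6% (23.8 to 38.1) of deficient-labelled cells with Nr4a2 and 21.6% (18.2 to 25.3) of cells without. That difference ran from 6.38 to 15.9 percentage points over 6 alternatives. Among wild-type-labelled cells the shares for Nr4a2 were 65.7% against 61.1%. Egr1-positive cells more often had Tnf in both libraries, with 13.9% against 6.11% and 25.7% against 15.8%, but the intervals were apart in only 1 and 2 of 6 alternatives, and at 20 UMIs of Tnf the differences were 0.27 and -0.37 percentage points. Wild-type-labelled cells with Egr1 also more often had Ifng (12.8% against 7.21%), Ccl3 and Ccl4, each apart in 3 of 6 alternatives. Gzmb was more frequent in them by 2.77 percentage points, but the difference was -0.46 where cells were thinned over the other genes.

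Egr3 was detected in only 25 and 24 thinned cells. Of the 25 wild-type-labelled cells, 12 (48.0%, 27.8 to 68.7) had Il17f and 7 (12.1 to 49.4%) had Ifng, against 73.6% and 8.78% of the others. The intervals are wide. Those of Il17f were apart in only 1 of 6 alternatives, and those of Ifng overlapped in each of 6. For Csf2, Il10 and Il22 no pair had intervals apart in either library. Across cells, rho between any of the 6 genes and any of the 12 cytokine genes lay between -0.16 and 0.24.

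Nr4a3 was highest in the wild-type-labelled cells with the most cytokine transcripts. With cells ranked by the summed UMIs of the 12 cytokine genes and divided into 4 groups, Nr4a3 stood at 56.6, 49.4 and 54.2 CPM in the lower 3 groups and at 144 CPM (124 to 167) in the highest. The share of cells with Nr4a3 was 17.5%, 14.7%, 20.3% and 43.0% (36.8 to 49.4). In the deficient-labelled library the level was 183, 317, 232 and 267 CPM, where the interval of the lowest group (156 to 213) overlapped only that of the third (201 to 266). The share of cells was 39.4% in the lowest group and 58.3 to 62.6% in the other 3. Nr4a1 was highest in the lowest group there, at 125, 92.0, 54.9 and 63.2 CPM, although its share of cells was 21.1 to 24.1% in all 4. Egr1 in the wild-type-labelled library was at 159, 163, 89.2 and 170 CPM, with no steady order.

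**Figure D4:**
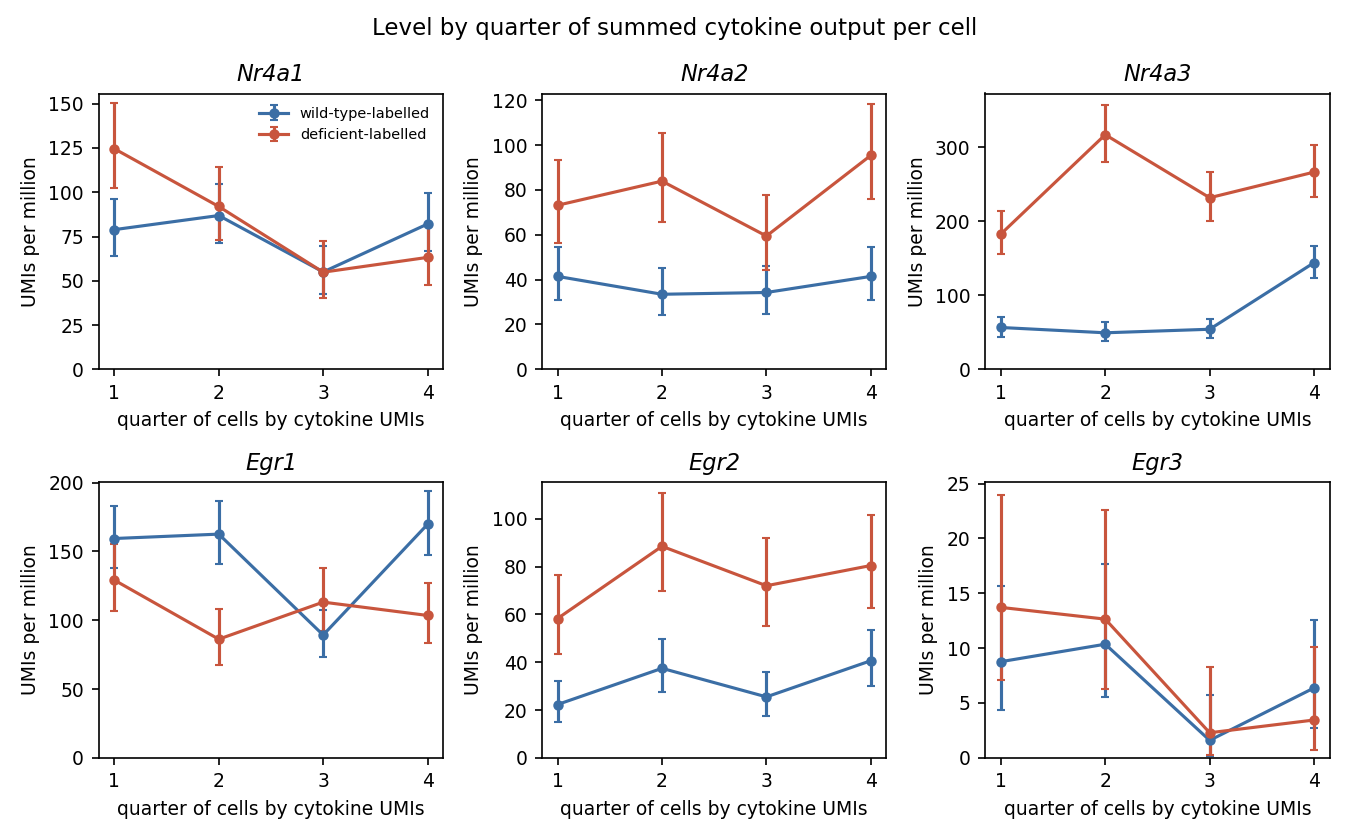
Level of each gene in 4 groups of cells ranked within each library by the summed UMIs of 12 cytokine genes (1 lowest, 4 highest), in CPM of the thinned counts with 95% Poisson intervals, for the wild-type-labelled (blue) and deficient-labelled (red) library. Blue Nr4a3 is flat over the lower 3 groups and at 144 in the highest, and red Nr4a1 falls from 125 in the lowest group to 63.2 in the highest.

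The libraries differed in cytokine output, which moves with the differences in level. Il17a-positive cells (at least 5 UMIs) made up 61.8% and 23.8%, Ifng-positive cells 9.26% and 43.0%, and Il2-positive cells 59.3% and 75.1%. Levels were therefore also read within classes of cells defined by Il17a, Ifng and Il2 together, of which 7 had at least 20 cells in each library. Nr4a3 was higher in the deficient-labelled library in 7 of 7 classes, at least 2-fold in 5, with folds from 1.27 to 4.79. Nr4a2 was higher in 7 of 7 (1.61 to 5.68-fold) and Egr2 in 6 of 7 (0.691 to 4.57-fold). Egr1 was lower in 7 of 7 (0.281 to 0.963-fold), and Nr4a1 went both ways (0.122 to 1.66-fold). The interval of the fold lay above 1 in 6 of 7 classes for each of Nr4a2, Nr4a3 and Egr2, and below 1 in 6 of 7 for Egr1. These intervals treat UMIs of the same cell as separate counts. By share of thinned cells, the Egr1 intervals overlapped in every class. Those of Nr4a2 were apart only in cells with Il2 alone and in cells with Il17a and Il2. Nr4a3 and Egr2 had intervals apart in these classes and in cells with Il17a alone, and Nr4a3 also in cells with none of the 3 cytokines.

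Most classes differed in the summed counts of Nr4a2, Nr4a3, Egr1 and Egr2, and fewer or none did by share of cells. Cells of a class were not matched for the other cytokine genes. Over all kept cells Ccl3 stood at 825 and 7429 CPM, Ccl4 at 6435 and 35809 CPM and Xcl1 at 6035 and 29078 CPM. Il17f went the other way, at 8253 and 3935 CPM. The part of cytokine output in the class differences was not tested. In cells positive for Il2 alone, 163 in each library, Nr4a3 stood at 65.5 CPM in wild-type-labelled and 314 CPM in deficient-labelled cells (4.79-fold, 4.14 to 5.56). In the largest wild-type-labelled class, Il17a with Il2 (372 and 93 cells), Nr4a3 differed 3.18-fold (2.85 to 3.55), Nr4a2 2.86-fold (2.38 to 3.43) and Egr2 2.41-fold (1.99 to 2.91), whereas Egr1 was at 0.514 of the wild-type-labelled level (0.429 to 0.613). In the largest deficient-labelled class, Ifng with Il2 (27 and 237 cells), the folds were smaller, at 1.69 (1.37 to 2.11) for Nr4a3, 2.17 (1.32 to 3.84) for Nr4a2 and 1.59 (1.11 to 2.37) for Egr2. In cells with none of the 3 cytokines (172 and 103), Nr4a3 differed 2.70-fold (2.20 to 3.31) and Egr1 not beyond counting error (0.963, 0.832 to 1.11). In the class with Ifng alone, 22 and 29 cells, the fold of Nr4a3 (1.27, 0.898 to 1.83) and that of Nr4a2 (2.18, 0.875 to 6.51) did not pass counting error. That class held the exception for Nr4a1, at 141 CPM (107 to 181) against 17.2 CPM (9.40 to 28.8); by cells the shares were 45.5% and 17.2%, with overlapping intervals (24.4 to 67.8 and 5.85 to 35.8). With the deficient-labelled classes weighted as in the wild-type-labelled library, the log2 ratios were 1.65 for Nr4a3, 1.36 for Nr4a2, 1.33 for Egr2, 0.42 for Nr4a1 and -0.76 for Egr1, against 1.78, 1.24, 1.40, 0.28 and -0.44 as measured.

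**Figure D5:**
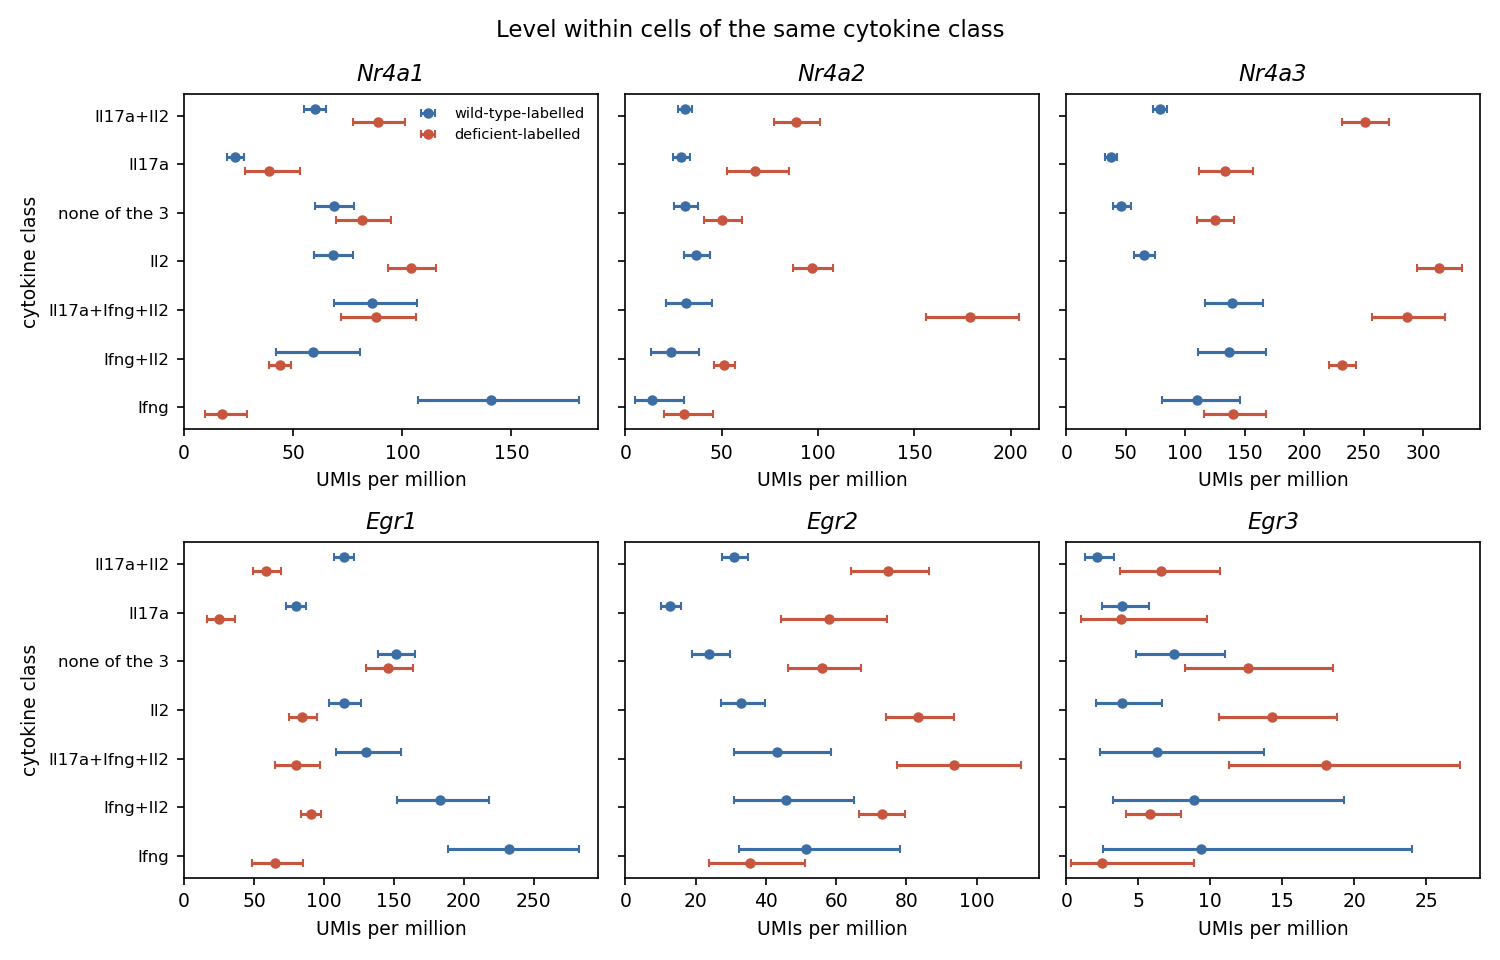
Level of each gene within 7 classes of cells defined by at least 5 UMIs of Il17a, Ifng and Il2, in CPM with 95% Poisson intervals, for the wild-type-labelled (blue) and deficient-labelled (red) library. Red lies to the right of blue in all 7 classes for Nr4a2 and Nr4a3, and to the left in all 7 for Egr1.

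The log2 ratios kept their signs in cells in which no transcript of the cycling genes Mki67, Top2a and Cdk1 was counted. Cycling cells in which these were missed stay in that set, and the part of cycling was not tested. Cells without any UMI of Mki67, Top2a or Cdk1 made up 66.6% and 75.04% of the libraries, and over them alone the log2 ratios were 1.73 for Nr4a3, 1.23 for Nr4a2, 1.24 for Egr2, 0.18 for Nr4a1 and -0.56 for Egr1. The filter removed 131 and 45 barcodes, most of them for mitochondrial counts. Over these Nr4a3 stood at 78.4 CPM (54.6 to 109) and 335 CPM (249 to 440). Egr2 stood at 22.4 CPM (10.7 to 41.2) and 85.3 CPM (45.4 to 146), also with intervals apart. The intervals overlapped for Egr1 (114 and 85.3 CPM), Nr4a2 (64.97 and 105 CPM), Nr4a1 (49.3 and 59.1 CPM) and Egr3 (8.96 and 39.4 CPM).

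The genes whose counts ran most like each member across cells were ranked by the lower of the 2 libraries' rho, over 4629 genes found in at least 10% of thinned cells in each. For Nr4a3 these were Slamf1 (0.32 and 0.29), Ptpn22 (0.28 and 0.32), Nfkbid, Rel and Slamf7. SLAMF1 and SLAMF7 are surface receptors of activated lymphocytes, PTPN22 is a phosphatase that dampens receptor signalling, and Nfkbid and Rel encode members of the NF-κB system. For Nr4a1 they were Rel (0.22 and 0.24), Nr4a3, Nfkb1, Malat1 and Maml2. For Egr1 they were Cd69 (0.31 and 0.17), an early activation marker, then Kdm6b, Junb, Nr4a1 and Cd274. For Nr4a2 they were Ptpn22 (0.15 and 0.21), Nr4a3, Spry1, Fam107b and Egr2, and for Egr2 they were Maml2 (0.23 and 0.20), Malat1, Nr4a3, Tagap and Slamf1. For Egr3 they were Nr4a1 (0.16 in each), Nr4a3, Nfkbid, Junb and Prkar1a. Nr4a3 was among the 5 of every other member except Egr1. The median rho over all 4629 genes was between -0.01 and 0.00 for every member, and all points share their library and depth.

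Most other early response genes did not pass the rule, as was so over all genes tested (2.27% higher and 2.08% lower). Of 38 listed, 33 reached 20 CPM, 2 were higher in the deficient-labelled library and 2 lower, with a median log2 ratio of 0.04, beside 0.03 over all genes tested. The higher genes were Zfp36l1, encoding an mRNA decay factor (68.3 and 247 CPM, 3.61-fold), and Spry1, encoding a feedback inhibitor of Ras signalling (37.7 and 137 CPM, 3.63-fold), whose folds were as large as that of Nr4a3. The lower genes were Dusp5, encoding a nuclear ERK phosphatase (185 and 81.1 CPM), and Irf8, encoding an interferon regulatory factor (338 and 154 CPM).

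Partners of the EGR and NR4A proteins showed 1 gene past the rule. Of 7 listed, 3 reached 20 CPM, 0 were higher and 1 lower, beside 2.27% and 2.08% over all genes tested. The median log2 ratio of those 3 was -0.69. Nab2, encoding a corepressor that binds EGR proteins and is itself an EGR target, stood at 25.03 CPM (23.1 to 27.1) and 10.001 CPM (8.59 to 11.6), 2.503-fold higher in the wild-type-labelled library (2.12 to 2.97). Its relative Nab1 stood at 31.1 and 18.9 CPM, and the nuclear receptor corepressor gene Ncor1 at 172 and 179 CPM.

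Of 14 genes linked to Egr2 and Egr3 in T-cell anergy, 9 reached 20 CPM, 1 was higher and 0 were lower (median log2 ratio 0.19). Over all genes tested 2.27% were higher and 2.08% lower. Crtam, encoding a surface receptor of activated CD8 cells, stood at 221 and 574 CPM. Dgkz, encoding a kinase that removes diacylglycerol, stood at 25.1 and 41.9 CPM, while Socs1 (73.0 and 54.5 CPM) and Ndrg1 (194 and 147 CPM) had the lowest ratios.

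Of 10 inhibitory receptors and factors linked to Nr4a in exhausted CD8 cells, 6 reached 20 CPM, 4 were higher and 0 lower, with a median log2 ratio of 1.25. The shares over all genes tested were 2.27% higher and 2.08% lower. Cd160 stood at 118 CPM in wild-type-labelled and 597 CPM in deficient-labelled cells, and Havcr2, encoding TIM-3, at 20.1 and 73.9 CPM. The other two called genes, named here after their values were seen, were Pdcd1, encoding PD-1 (18.9 and 43.2 CPM), and Tox, a transcription factor gene of exhausted cells (8.59 and 23.2 CPM). Lag3 (53.3 and 75.4 CPM) and Ctla4 (78.0 and 81.9 CPM) stayed within 2-fold. Tox2, also named after its values were seen, was lower but below the floor (14.6 and 5.70 CPM). The lists were chosen with earlier results of these data known, so their counts are a description.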

How the data were processed

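Per the labels, the single-cell libraries were made with the Chromium 3′ v3.1 reagents. The deposited values, UMI counts by gene and barcode, came from Cell Ranger 7.0.0 per the file headers, aligned to mm10 per the submitters' processing notes. The sources used here do not give the gene annotation or say if intronic reads were counted. Samples were grouped by their genotype labels.

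Barcodes with fewer than 500 genes or above 10% mitochondrial UMIs were left out, giving totals of 24452538 and 17898193 UMIs. Counts of 12 multiplexing tags stayed out of totals. Intervals are 95%: exact Poisson for sums, Clopper-Pearson for shares, conditional binomial for ratios of sums, and for a difference of shares the Clopper-Pearson limits combined. No test was run. Levels by rank of cytokine output use thinned counts, and class levels unthinned counts. Cells within 2 UMIs of the limit of 5 made up 3.09% to 29.5% for Il17a, Il2, Ifng and Tnf. Scrublet (scanpy 1.11.5) called 6 and 8 doublets, kept in the main values. The members and lists were chosen with earlier results of these data known. In the list of partner genes, 1 further gene is not reported here. Named besides the 6 genes are, per list, the 2 highest and 2 lowest ratios above 20 CPM, 12 cytokine genes (Il17a, Il17f, Ifng, Il2, Tnf, Csf2, Il10, Il22, Ccl3, Ccl4, Xcl1, Gzmb), and the 5 genes most like each member; Pdcd1, Tox and Tox2 are named outside this rule. The scripts were tested on simulated data. Alternatives used edgeR 4.0.16 and DESeq2 1.42.0 (R 4.3.3) for scaling factors only; the rest used Python 3.11.15, NumPy 2.4.6 and SciPy 1.17.1.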

Additional observations from a re-analysis of the deposited data

Results flagged for a closer look

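The relation of Nr4a1 to Ifng had opposite signs in the 2 libraries, each with the intervals of the shares apart. The share of cells with at least 5 Ifng UMIs was higher by 7.07 percentage points in cells with Nr4a1 in the wild-type-labelled library, and differed by -14.9 percentage points in the deficient-labelled library. The difference between the libraries itself was not tested. Under 6 alternatives the values ran from 6.17 to 9.39 and from -19.6 to -11.4, with intervals apart in 4 of 6 in each library.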

How the results depend on the processing

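The number of members called higher (3) and lower (0) was the same in each of 13 settings, 1 of them (the class mix) added after the data were seen. Of 72 log2 ratios under alternatives, 57 stayed within the counting interval of the reported value, 15 lay outside it and 0 changed sign. On cells thinned to 5000 UMIs the ratios were 0.14 for Nr4a1, 1.03 for Nr4a2, 1.22 for Egr2 and 0.22 for Egr3. As a mean of per-cell CPM they were 1.06 for Nr4a2, 1.63 for Nr4a3, -0.54 for Egr1 and 1.15 for Egr2. In cells without Mki67, Top2a or Cdk1 they were -0.56 for Egr1 and 1.24 for Egr2. With the wild-type class mix they were 0.42 for Nr4a1, 1.65 for Nr4a3 and -0.76 for Egr1. A pseudocount of 5 gave 0.62 for Egr3, and a total without the 12 cytokine genes, which moved the median of all genes to 0.12, gave 1.87 for Nr4a3. The cause of these shifts was not tested. Of 186 relation values under alternatives of pairs with intervals apart, 3 changed sign: at 20 UMIs of Tnf, Nr4a3 in the wild-type-labelled library (-0.13) and Egr1 in the deficient-labelled library (-0.37), and, thinned over other genes, Egr1 with Gzmb in the wild-type-labelled library (-0.46). Of 462 values of pairs with overlapping intervals, 65 did. Pairs with Csf2, Il10 and Il22 were not run under alternatives. At 2000 and 10000 UMIs the cytokine limit was scaled to 2 and 10. Of 30 detection differences 13 lay outside the interval of the reported value. Depth limits these shares: for Egr3 those expected over all random draws were 1.75% and 4.23%, and the Egr2 difference was 6.13 percentage points at 2000 UMIs, 16.3 at 5000 and 34.3 unthinned. No paired analysis was possible because each group has 1 library.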
